A study of Prunus dulcis and Prunus persica with 12 samples.

Results

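The *Vr3* region of almond chromosome 2 holds the powdery mildew resistance locus of the species, and 5 of its gene models are described here. These are the models whose functional description in the study's region list names a disease resistance protein. They are TexasF0_G8091, TexasF0_G8092, TexasF0_G8093, TexasF0_G8097, and TexasF0_G8098, out of 28 models listed for the region and 29183 in the count table. They were picked by an annotation rule that used no expression value, although earlier results of these data were known when the set was chosen. RNA-seq counts came from *Prunus dulcis* cv. Texas grown in the field with normal watering, with 3 libraries of flowers at the pink stage and 3 of immature fruits. No group is labelled as infected or treated, and all libraries come from a single cultivar. The study calls the libraries biological replicates, but the labels do not say whether they came from separate trees. The 6 libraries of peach cv. Early Gold have no column in the tables and were not analysed here, and leaf columns, which match no sample, were not used here.

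Plant disease resistance proteins of the NLR type are receptors inside the cell that recognize molecules of a pathogen or their effects and start a defense response. A typical NLR has a variable N-terminal domain of the coiled-coil or TIR type, a central nucleotide-binding NB-ARC domain that acts as a switch, and leucine-rich repeats (LRR) that contribute to recognition. NLR genes often lie in tandem clusters of similar copies, which are hard to assemble and in which reads of a copy can be assigned to another. Rx_N is the coiled-coil domain named after the potato protein Rx, which gives resistance to a virus.

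All 5 models lie on the minus strand of chromosome 2 of Texas v.3.0 within 49920 bp. These positions are those of the study's region list, where the names carry the prefix TexasF1, and positions on Phase-0 were not checked. TexasF0_G8091 (chr2:16080420-16082703) is annotated as a TIR-NBS-LRR class protein, but no Pfam domain is listed for it. TexasF0_G8092 (chr2:16083083-16084588) starts 379 bp beyond it, is named after RGA3, a putative resistance protein of a wild potato, and lists Rx_N and NB-ARC without LRR. TexasF0_G8093 (chr2:16097196-16102317) is named after RGA4 of the same potato and lists Rx_N, NB-ARC, and LRR. TexasF0_G8097 (chr2:16124284-16130339) is named after RPP1, a TIR-type NLR of Arabidopsis that recognizes downy mildew, and the part of its domain list that was read names LRR alone. TexasF0_G8098 (chr2:16125521-16130339) is also named after RGA4, lists NB-ARC alone, and lies wholly within TexasF0_G8097 on the same strand, with an overlap of 4819 bp. The names mix TIR and coiled-coil types, and NB-ARC was found in the read part of the list for 3 of the 5 members. The domain lists of TexasF0_G8093, TexasF0_G8097, and TexasF0_G8096 were read in part, so whether the models are complete NLRs was not tested. Members TexasF0_G8093, TexasF0_G8097, and TexasF0_G8098 share a single equivalent in Texas v.2.0, while TexasF0_G8091 and TexasF0_G8092 have none. The same equivalent is given for the non-members TexasF0_G8094, TexasF0_G8095, and TexasF0_G8096, so 6 listed models share it and it is not particular to the members. A neighbour outside the set, TexasF0_G8096 (chr2:16115541-16121508, minus strand), lists Rx_N, NB-ARC, and LRR as well and served as the closest comparison. Its UniProt match is a putative disease resistance protein, the same entry as that of TexasF0_G8091. UniProt matches were not used to choose the members, and those of TexasF0_G8093, TexasF0_G8097, and TexasF0_G8098 are uncharacterized proteins. By that column TexasF0_G8096 would also be named a resistance protein.

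The libraries held between 40130120 and 54926220 reads on genes, of which between 1091 and 5964 fell on the 5 members. Levels below are given as CPM, read counts divided by library size after scaling with TMM factors, which lay between 0.812 and 0.879 in flower and between 1.11 and 1.29 in fruit. Each member had at least 10 reads in every library (61 to 2965), so all 5 were detected in both organs and all 5 passed the expression filter. Counts of libraries within an organ differed beyond counting noise (chi-square of 45.6 to 201.3 for each degree of freedom), so no library was counted as a repeat deposit of another, which does not show that they came from separate plants. The identifiers were not paired with gene names outside the *Vr3* list, so markers of flower and fruit were not checked. In such bulk samples, fewer cells of a type and less RNA per cell cannot be told apart.

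Across the members, reads were more abundant in fruit than in flower for all 5 by the fitted fold change, as for 52.2% of tested genes, and the difference passed the test for 3 of them. These were TexasF0_G8091, TexasF0_G8093, and TexasF0_G8097, with fruit levels between 2.22 and 2.58 times those of flower. The test was edgeR's quasi-likelihood test over 19917 genes with Benjamini-Hochberg adjustment and a threshold of 0.05. Among all tested genes, 55.6% differed in either direction, so the 60% of members that differed lies near the share of all genes. The 3 called members were all higher in fruit, as were 28% of tested genes. In the same 3 members every fruit library exceeded every flower library, which was found in 33.2% of tested genes, with the reverse in 32.7% and either in 65.9%. The median log2 fold change of fruit over flower was 1.15 for the 5 members, 0.06 over all tested genes, and -0.23 for the 11 other models of the list that were tested.

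TexasF0_G8091 had the most reads of the members in every library. It had 17.1, 21.0, and 15.2 CPM in flower replicates 1 to 3 and 57.0, 26.8, and 34.5 CPM in fruit replicates 1 to 3. The fruit values were all above the flower values, and fruit replicate 1 stood apart from the other fruit libraries. The log2 fold change was 1.15 (standard error 0.29, 95% interval 0.48 to 1.82, adjusted p = 0.0106 from edgeR). It ranged from 0.79 to 1.36 when each library was left out in turn and passed the threshold each time.

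TexasF0_G8093, which lists the coiled-coil, NB-ARC, and LRR domains, had 7.26, 7.90, and 4.69 CPM in the flower libraries and 24.1, 11.8, and 11.4 CPM in the fruit libraries. The organs did not overlap, and fruit replicate 1 was again the highest library. The log2 fold change was 1.25 (standard error 0.35, 95% interval 0.44 to 2.07, adjusted p = 0.0174 from edgeR). Without flower replicate 3 it was 1.05 and did not pass the threshold (adjusted p = 0.0647 from edgeR), and without fruit replicate 1 it was 0.81 (adjusted p = 0.0353 from edgeR).

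TexasF0_G8097 was the member with the fewest reads and the smallest spread. It had 1.67, 1.43, and 1.51 CPM in flower and 3.77, 4.09, and 4.06 CPM in fruit, so that the organs were separated by more than the range within either of them. Its coefficient of variation was 7.96% in flower and 4.42% in fruit, and 29.9% and 2.98% of tested genes, respectively, were at or below these values. These values rest on 3 libraries per organ and on 61 to 73 reads per flower library. Whether its spread is smaller than that of other members beyond these libraries was not tested. The log2 fold change was 1.37 (standard error 0.26, 95% interval 0.77 to 1.96, adjusted p = 0.00288 from edgeR), the largest fitted value among the members. It stayed between 1.31 and 1.43 when each library was left out in turn.

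TexasF0_G8092, which lists the coiled-coil and NB-ARC domains, had 6.64, 7.44, and 2.23 CPM in flower and 16.8, 7.82, and 6.78 CPM in fruit. The organs overlapped, because fruit replicate 3 lay below flower replicate 2. The log2 fold change was 0.94 (95% interval -0.24 to 2.12) and did not pass the threshold (adjusted p = 0.150 from edgeR). Without fruit replicate 1 it was 0.42, and without flower replicate 3 it was 0.57. The interval includes both no difference and a fold change as large as those of the called members.

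TexasF0_G8098, which lists NB-ARC alone, had 6.27, 6.18, and 3.43 CPM in flower and 13.1, 5.64, and 6.20 CPM in fruit. Apart from fruit replicate 1, the fruit libraries lay within the range of the flower libraries. The log2 fold change was 0.65 (95% interval -0.26 to 1.57) and did not pass the threshold (adjusted p = 0.195 from edgeR). Without fruit replicate 1 it was 0.16, and without flower replicate 3 it was 0.41. The genomic span of this model lies within that of TexasF0_G8097, so reads of sequence held by both transcript models can be assigned to either. Which exons the 2 models share was not checked.

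**Figure D1:**
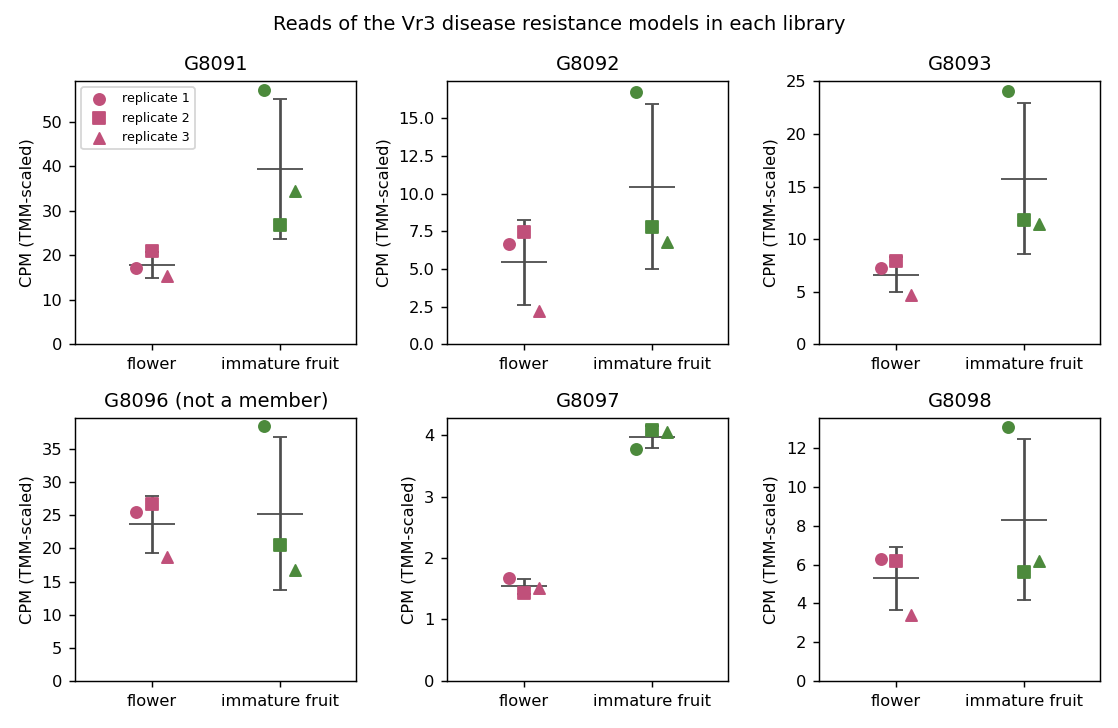
TMM-scaled CPM of the 5 members and of TexasF0_G8096 in each flower and immature fruit library, with a panel and a linear axis from 0 for each model (labels leave out the prefix TexasF0_). Marker shapes give the replicate, and the line and bars give the mean ± SD (n = 3). Fruit lies above flower without overlap for G8091, G8093, and G8097, and fruit replicate 1 is the highest library for every model drawn but G8097.

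The overlapping pair was also counted as a single feature. For the summed reads of TexasF0_G8097 and TexasF0_G8098 the log2 fold change was 0.85 with a standard error of 0.29 (edgeR, adjusted p = 0.0402), between the values of the separate models. The ratio of TexasF0_G8097 to TexasF0_G8098 reads was 0.266, 0.232, and 0.442 in flower and 0.288, 0.725, and 0.655 in fruit. The ratios of the organs overlapped (exact permutation test, two-sided p = 0.2, where 3 libraries against 3 cannot go below 0.1).

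To see how the copies differ in level, CPM was divided by the genomic span of each model, which includes introns, since transcript lengths were not used here. On this scale TexasF0_G8091 was the highest member, with 7.77 ± 1.28 CPM per kb in flower and 17.3 ± 6.88 in fruit (SD, n = 3). It did not overlap with the next model in either organ. TexasF0_G8092 followed among the members with 3.61 ± 1.86 and 6.94 ± 3.64 CPM per kb. TexasF0_G8093 had 1.29 ± 0.331 and 3.08 ± 1.404, and TexasF0_G8098 had 1.10 ± 0.335 and 1.72 ± 0.862 CPM per kb. The ranges of neighbouring models in this part of the order overlapped between libraries in both organs. Within each library, however, TexasF0_G8092 was above TexasF0_G8093, which was above TexasF0_G8098. In flower replicate 3, where they lay closest, the values were 1.48, 0.916, and 0.711 CPM per kb. These differences within libraries were not tested. TexasF0_G8097 was the lowest with 0.254 ± 0.0202 in flower and 0.656 ± 0.029 in fruit, without overlap with TexasF0_G8098. The order of the 5 members was the same in both organs, while TexasF0_G8096, at 3.96 ± 0.714 and 4.23 ± 1.94 CPM per kb, stood above TexasF0_G8092 in flower and below it in fruit, with overlapping libraries.

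By CPM, the members ranged from low to moderate levels among tested genes. In flower, the level of TexasF0_G8091 was at or above that of 54.0% of tested genes, and that of TexasF0_G8097 was at or above 15.2%. In fruit, these values were 73.5% and 27.5%. The deposited regularized log values, in which the authors shrank the variance of low counts, also had TexasF0_G8091 as the highest and TexasF0_G8097 as the lowest member in both organs. TexasF0_G8091 was at 9.11 ± 0.217 in flower and 10.22 ± 0.510 in fruit, and TexasF0_G8097 at 5.58 ± 0.0917 and 6.86 ± 0.083 on the log2 scale (SD, n = 3).

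The share of each member in the reads of all 5 does not depend on library scaling. TexasF0_G8091 held 49.3% ± 6.29 of these reads in the flower libraries and 50.8% ± 3.62 in the fruit libraries (SD, n = 3), and they overlapped between organs (exact permutation test, two-sided p = 0.7). TexasF0_G8093 held 18.0% ± 0.662 and 20.04% ± 1.64 (exact p = 0.2), and TexasF0_G8092 held 14.1% ± 5.06 and 13.1% ± 2.04 (exact p = 0.8). TexasF0_G8097 held 4.38% ± 1.17 and 5.67% ± 2.11 (exact p = 0.4). Only TexasF0_G8098 had shares without overlap, with 16.1%, 14.1%, and 12.6% in flower and 11.4%, 10.04%, and 9.85% in fruit (exact p = 0.1, the smallest that 3 against 3 allow). The exact test cannot pass 0.05 with 3 libraries against 3, so the 5 shares were compared by their overlap. The overlap depends on the total. With TexasF0_G8096 included, shares of TexasF0_G8098 overlapped (7.47% to 9.74% in flower, 7.35% to 8.55% in fruit). Then TexasF0_G8091 (26.5% to 33.2% in flower, 35.0% to 43.2% in fruit) and TexasF0_G8093 (10.2% to 11.3%, 14.3% to 15.7%) had shares without overlap.

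TexasF0_G8096 had no organ difference that passed the threshold, but the interval of its fold change overlapped with those of all 5 members. It had 25.5, 26.7, and 18.8 CPM in flower and 38.5, 20.5, and 16.8 CPM in fruit, and its log2 fold change was 0.10 (95% interval -0.64 to 0.83, adjusted p = 0.818 from edgeR). When it was counted together with the members, its share went from 39.4% ± 1.57 in the flower libraries to 24.3% ± 2.95 in those of fruit (SD, n = 3), without overlap. Reads of TexasF0_G8093 per read of TexasF0_G8096 were 0.285, 0.296, and 0.25 in flower and 0.625, 0.574, and 0.681 in fruit. The same ratio for TexasF0_G8091 was 0.67, 0.786, and 0.811 in flower and 1.48, 1.31, and 2.05 in fruit. Neither ratio overlapped between the organs, and fruit was higher in both (two-sided exact permutation test, p = 0.1 each, the smallest this design allows). Fruit replicate 1 lay between the other fruit libraries in both ratios. Ratios of the other members to TexasF0_G8096 were not computed, so these values do not set TexasF0_G8091 and TexasF0_G8093 apart from them. Reads of TexasF0_G8093 per read of the member TexasF0_G8098 were 1.16, 1.28, and 1.37 in flower and 1.84, 2.09, and 1.84 in fruit. That ratio did not overlap between the organs either (two-sided exact permutation test, p = 0.1). Reads of TexasF0_G8091 per read of TexasF0_G8092 overlapped, with 2.57, 2.82, and 6.81 in flower and 3.40, 3.43, and 5.08 in fruit.

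**Figure D2:**
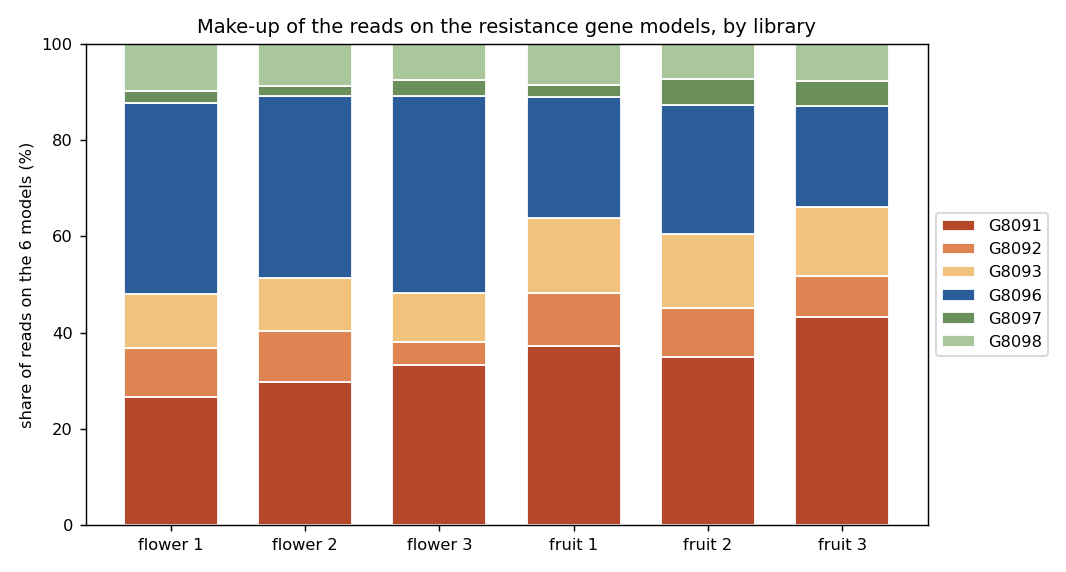
Share of each model, in percent, in the reads of the 5 members and TexasF0_G8096, as a stacked bar for each library (n = 3 per organ). The share of TexasF0_G8096 is 37.8% to 40.9% in the flower libraries and 21.1% to 26.8% in the fruit libraries.

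Another model with an NB-ARC domain, TexasF0_G8108, which lies beyond the cluster, had 0 reads in the 6 libraries. Over the reads of all libraries, a count of 0 allows a level of up to 0.0106 CPM, from 3 reads. The same holds for TexasF0_G8095, a model without a description that matches a ULP_PROTEASE domain-containing protein and lies between TexasF0_G8093 and TexasF0_G8096. TexasF0_G8089, the listed model next to TexasF0_G8091, had 1 read in total.

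Of the other neighbours, TexasF0_G8094 lies between TexasF0_G8093 and TexasF0_G8096 on the plus strand and is annotated as a PMD domain-containing protein. It had 8.22, 8.81, and 4.99 CPM in flower and 18.5, 10.9, and 19.8 CPM in fruit, without overlap, and its log2 fold change of 1.16 passed the threshold (adjusted p = 0.0137 from edgeR). TexasF0_G8099, a haloacid dehalogenase-like hydrolase on the other side of the cluster, had 47.4 ± 2.98 CPM in flower and 53.9 ± 8.64 in fruit (SD, n = 3) and did not pass (adjusted p = 0.344 from edgeR). TexasF0_G8086, a model named after an embryo sac development protein, also passed with higher fruit levels (1.44 on the log2 scale, edgeR adjusted p = 0.00479). Of the 23 models of the list that are not members, 8 had no read in any library and 11 were tested, of which 2 were higher in fruit, 4 were higher in flower (27.6% of all tested genes were), and 5 did not pass. The models higher in flower were the transporter TexasF0_G8088 and the riboflavin biosynthesis gene TexasF0_G8102, with fold changes of -0.63 and -0.41 on the log2 scale, and the putative aldehyde oxygenases TexasF0_G8106 (-8.04) and TexasF0_G8110 (-8.28).

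**Figure D3:**
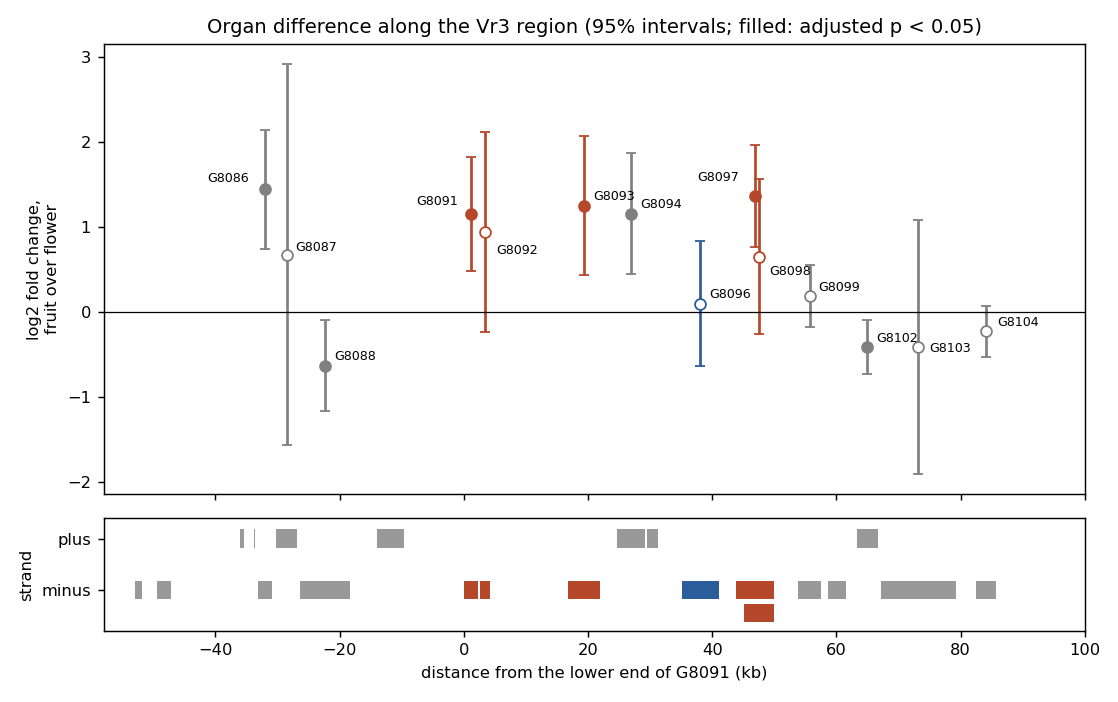
Log2 fold change of fruit over flower with its 95% interval for the tested models near the cluster (top), and the models on each strand (bottom), by distance in kb from the lower end of TexasF0_G8091. Members are red, TexasF0_G8096 is blue, other models are grey, filled points passed the threshold, and the 2 aldehyde oxygenase models lie beyond the right edge. The members, TexasF0_G8094, TexasF0_G8086, TexasF0_G8087, and TexasF0_G8099 are on the positive side, and TexasF0_G8096 is close to 0. The highest point is TexasF0_G8086 at 1.44.

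Within each organ, libraries with high values of a member had high values of most others. For TexasF0_G8091, TexasF0_G8092, TexasF0_G8093, and TexasF0_G8098, fruit replicate 1 was the highest of the 6 libraries and flower replicate 3 the lowest, a pattern found in 8.09% of tested genes. The ratio of fruit replicate 1 to the mean of the other fruit libraries was 1.86, 2.30, 2.07, and 2.21 for these 4 members, and between 4.29% and 8.28% of tested genes had a ratio as large. The ratio of flower replicate 3 to the mean of the other flower libraries was 0.8005, 0.317, 0.619, and 0.551 for the same members, and 15.6%, 1.29%, 5.47%, and 3.79% of tested genes had a ratio as small. TexasF0_G8096 had the same high value in fruit replicate 1, with a ratio of 2.06. TexasF0_G8097 did not show it, with ratios of 0.926 in fruit and 0.977 in flower, although it overlaps TexasF0_G8098. Both libraries were then left out, an alternative chosen after seeing the data. They are the highest and lowest libraries of the 4 members other than TexasF0_G8097, so the fold changes of these 4 fall by construction. Fewer libraries per organ also remain for the test, so the lost calls cannot be read as the part of these libraries. Then TexasF0_G8097 alone passed the threshold (1.39 on the log2 scale, edgeR adjusted p = 0.0211), 1 of 5 members, while 46.6% of tested genes differed and 22.6% were higher in fruit. TexasF0_G8091 and TexasF0_G8093 fell short of it (0.69 and 0.62, adjusted p = 0.0527 and 0.0594 from edgeR), TexasF0_G8092 was at 0.05, and TexasF0_G8098 was at -0.07.

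**Figure D4:**
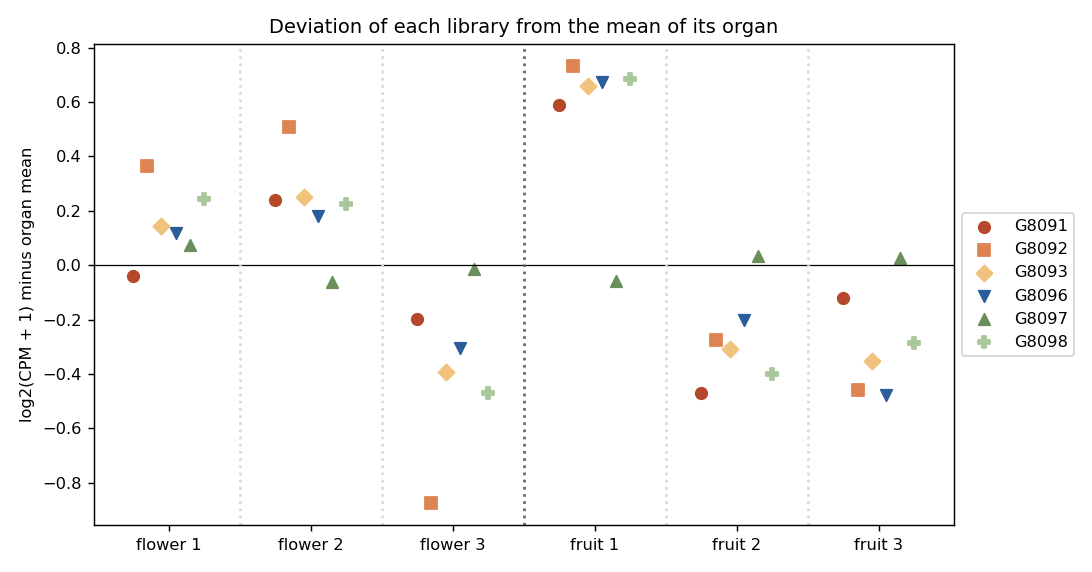
Deviation of each library from the mean of its organ, on the scale of log2 (CPM + 1), for the 5 members and TexasF0_G8096. Fruit replicate 1 is 0.59 to 0.73 above its organ mean for every model but G8097, whose deviations stay within -0.06 and 0.07 in all 6 libraries. The added 1 shrinks deviations of models with low CPM such as G8097.

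The genes most like the members were sought by Pearson correlation of log2 (CPM + 1) over the 6 libraries with the mean standardized profile of the 5 members. The 6 points fall into 2 organs and share depth and scaling, so these values are a description. TexasF0_G20918 had r = 0.999 and TexasF0_G30009 had r = 0.996, and 375 tested genes (1.88%) had at least 0.95. Neither identifier has a gene name in the tables used here. Within the *Vr3* list, the closest model to TexasF0_G8091 was TexasF0_G8093 (r = 0.970), and the closest to TexasF0_G8092 was TexasF0_G8098 (r = 0.959), and the reverse in both cases. TexasF0_G8097 was closest to TexasF0_G8086 (r = 0.909). The profile correlated at 0.563 with TexasF0_G8096 and at 0.897 with TexasF0_G8094.

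None of the 28 models of the list is among the 6182 genes of the allele-specific table, which the authors limited to genes with coding SNPs away from INDELs. Allele-specific expression of the members was therefore not analysed here.

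**Figure D5:**
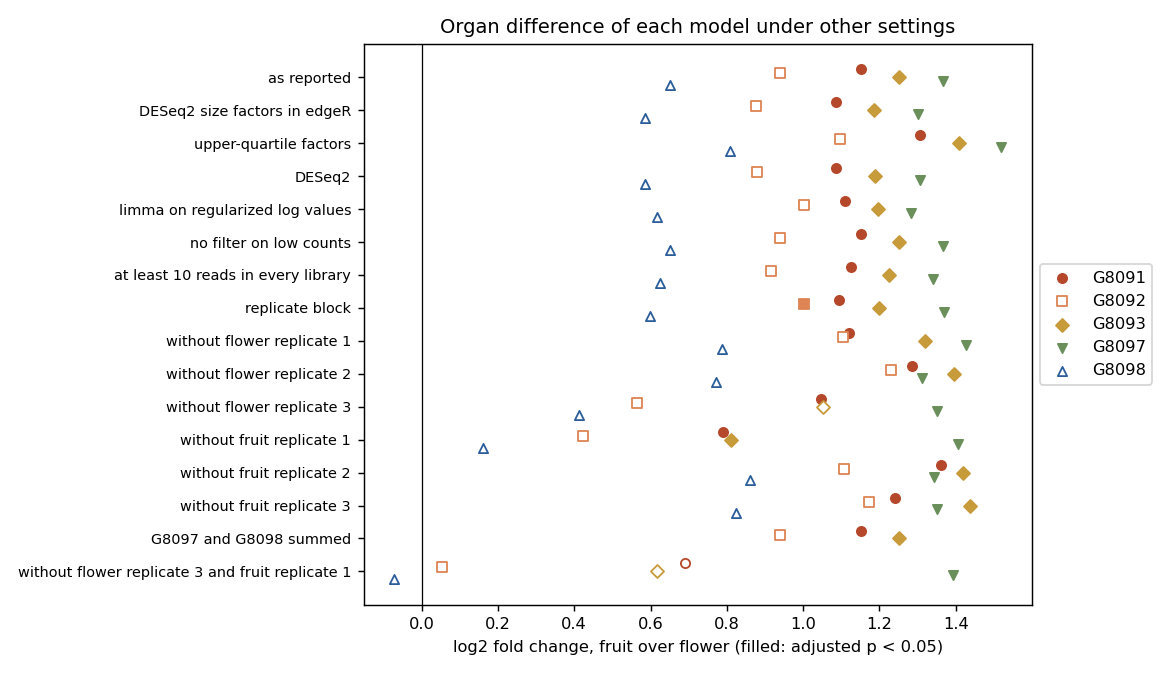
Log2 fold change of fruit over flower of each member under each setting (filled points: adjusted p under 0.05). Points of G8097 stay between 1.28 and 1.52 and filled in every setting in which it was fitted, while those of G8092 and G8098 move to 0.05 and -0.07 without flower replicate 3 and fruit replicate 1.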

How the data were processed

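Gene counts and the regularized log2 matrix of 6 almond libraries were used. The authors aligned the reads to transcript models (Bowtie2), estimated counts with RSEM, and deposited these counts without normalization. RSEM divides reads that fit several models, so values of similar or overlapping models are uncertain, and whether strand was used is not given in the sources used here. The authors deposited DESeq2 regularized log2 values of the same counts, fitted together with leaf. The authors deposited counts of reads per allele, which hold no member. There are 3 leaf columns in each gene table and 6 in the allele count table that match no sample and were not used.

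Members were matched to the study's region list by the number in their name (prefix TexasF1 there), which assumes that equal numbers are the same gene. Coordinates and annotation come from that list. No identifier of the 29183 matched the RefSeq gene table. The rule for the members used annotation alone, but the set and the lists were chosen with earlier results of these data known.

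Tests used edgeR 4.0.16 in R 4.3.3 with TMM and filterByExpr (19917 genes), no block, and Benjamini-Hochberg adjustment with a threshold of 0.05. The whole-number counts were used as deposited. Standard errors were taken from the fold change and the F statistic. Log2 (CPM + 1) was used for profiles. Shares and ratios were compared by exact permutation tests (SciPy 1.17.1), without adjustment over the members. Alternatives used DESeq2 1.42.0 and limma 3.58.1, other factors, filters and features, a replicate block, and left-out libraries. The fits were run on simulated counts with larger fold changes and less spread than those of the members, so this does not show their power here. Limits for counts of 0 cover counting error only, and p-values measure the spread between these libraries. Genes were named as the 5 members, the other NB-ARC models, the neighbouring models, any listed model past the threshold, and those most like the members.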

Additional observations from a re-analysis of the deposited data

How the results depend on the processing

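All 5 members had a positive log2 fold change of fruit over flower under every setting tried, except TexasF0_G8098 without flower replicate 3 and fruit replicate 1 (-0.072). With DESeq2 (adjusted p), with limma on the regularized log values, with other size factors and with other filters, the same 3 members passed, and between 46.7% and 57.2% of tested genes did. Upper-quartile factors moved the median of all genes by 0.15 on the log2 scale. Leaving out each library in turn gave log2 fold changes from 0.79 to 1.36 for TexasF0_G8091, 0.42 to 1.23 for TexasF0_G8092, 0.81 to 1.44 for TexasF0_G8093, 1.31 to 1.43 for TexasF0_G8097, and 0.16 to 0.86 for TexasF0_G8098, with 2 to 3 members called beside 43.8% to 57% of tested genes. TexasF0_G8093 did not pass without flower replicate 3 (1.05). Without flower replicate 3 and fruit replicate 1, an alternative chosen after seeing the data, 1 member was called, with 0.69 for TexasF0_G8091 and 0.62 for TexasF0_G8093.

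Same-numbered libraries did not deviate together (correlations of 0.0582, -0.200, and 0.131 across genes), so the numbers are not taken to pair the samples. With the replicate block, 4 members were called, as TexasF0_G8092 passed (1.001 on the log2 scale, edgeR adjusted p = 0.0485), while 51.3% of tested genes were called. Not every library correlated best with its own number.

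With all models that list NB-ARC in the total, the difference in share between fruit and flower was 8.69 percentage points for TexasF0_G8091, 4.24 for TexasF0_G8093, and -0.762 for TexasF0_G8098, against 1.48, 2.06, and -3.84 among the members alone. In that wider total the organs overlapped for TexasF0_G8098 and did not for TexasF0_G8091 and TexasF0_G8093, the reverse of the result among the members alone. Leaving out each library in turn, the differences in share among the members alone ranged from -1.21 to 4.94 for TexasF0_G8091, -3.90 to 0.5003 for TexasF0_G8092, 1.58 to 3.0015 for TexasF0_G8093, 0.486 to 2.48 for TexasF0_G8097, and -4.66 to -2.92 for TexasF0_G8098. The alternatives planned for the allele counts were not run, as no member is in that table. TexasF0_G8097 had 61 to 73 reads per flower library, the fewest of the members.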
